A study of Mus musculus with 3 samples.

Results

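The expression of 8 secreted cytokine genes was examined in sorted lymph node stromal cells: the chemokine genes Cxcl1, Cxcl2, Cxcl5, Ccl2, Ccl7 and Ccl11, and Il6 and Lif of the interleukin-6 family. These genes were taken by symbol and each matched 1 of the 51912 genes in the deposited tables. The rule uses no measured value, but the list was drawn up with earlier results of these data known. The cells came from C57BL/6 mice labelled CXCL13-TdTomato+, a transgene in which regulatory sequence of Cxcl13, the follicle chemokine gene, drives Cre and the red fluorescent protein TdTomato marks the cells. Cells were sorted as live, Podoplanin+, CD31- and CD45-, from pooled lymph nodes of several mice for every library. A pair of libraries (2IC replicates 1 and 2) came from mice given 2 antigen immune complexes, 7 days and 24 h before analysis, and 1 library (1IC) from mice given 1 complex 24 h before. All groups were injected, and no uninjected library was analysed here.

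CXCL1, CXCL2 and CXCL5 are small secreted proteins that recruit neutrophils through the receptor CXCR2. CCL2 and CCL7 recruit monocytes through CCR2, and CCL11 recruits eosinophils through CCR3. IL-6 and LIF signal through the shared receptor chain gp130 and STAT3, and fibroblasts are a known source of all of these factors. Fos and Jun encode subunits of the transcription factor AP-1 and belong to the immediate early genes, whose RNA appears within minutes of a stimulus, tissue digestion included.

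The genes lie in clusters. On the GRCm38 build, Cxcl5 (chr5:90759360-90761624), Cxcl1 (chr5:90891241-90893115) and Cxcl2 (chr5:90903871-90905938) follow each other on the plus strand, with 10755 bases between Cxcl1 and Cxcl2. Ccl2 (chr11:82035571-82037453), Ccl7 (chr11:82045712-82047525) and Ccl11 (chr11:82057823-82062955) are neighbours on the plus strand with 8258 and 10297 bases between them. Il6 (chr5:30013114-30019981) and Lif (chr11:4257557-4272514) lie apart from both clusters, also on the plus strand.

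RefSeq promoter windows (GRCm38.p6) were at hand for 4 of the 8 genes only, and these 4 are shown. The bases just before each gene's start are given 5′ to 3′ on the plus strand, with capitals for matches to 2 motifs searched on both strands, TGACTCA (bound by AP-1) and the 10-base NF-kB motif of 3 G, 2 of any base, 3 T and 2 C (bound by NF-kB, a factor downstream of TNF and IL-1). The windows run from chr5:90890995-90891240 for Cxcl1, chr5:90903649-90903870 for Cxcl2, chr5:30012864-30013113 for Il6 and chr11:4257318-4257556 for Lif.
Cxcl1: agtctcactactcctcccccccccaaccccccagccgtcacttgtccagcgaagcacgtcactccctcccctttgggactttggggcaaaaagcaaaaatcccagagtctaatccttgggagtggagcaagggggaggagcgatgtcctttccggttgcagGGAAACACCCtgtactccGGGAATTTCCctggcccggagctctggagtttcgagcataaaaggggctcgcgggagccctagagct
Cxcl2: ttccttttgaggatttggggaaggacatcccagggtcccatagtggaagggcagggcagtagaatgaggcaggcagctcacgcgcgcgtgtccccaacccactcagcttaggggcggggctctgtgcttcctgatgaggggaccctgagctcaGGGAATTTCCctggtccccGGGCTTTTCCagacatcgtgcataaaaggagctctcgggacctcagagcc
Il6: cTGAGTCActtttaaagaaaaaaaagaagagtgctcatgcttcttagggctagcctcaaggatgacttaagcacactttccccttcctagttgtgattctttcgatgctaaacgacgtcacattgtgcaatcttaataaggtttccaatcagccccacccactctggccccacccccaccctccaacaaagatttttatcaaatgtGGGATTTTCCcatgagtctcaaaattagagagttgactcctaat
Lif: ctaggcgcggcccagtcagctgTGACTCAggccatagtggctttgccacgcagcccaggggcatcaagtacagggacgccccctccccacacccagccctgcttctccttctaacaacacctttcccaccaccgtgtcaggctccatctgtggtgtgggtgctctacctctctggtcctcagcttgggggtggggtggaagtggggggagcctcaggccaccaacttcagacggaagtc
Cxcl1 and Cxcl2 each held 2 NF-kB matches. Distances were counted from the last base of a match to the RefSeq start. For Cxcl1, Cxcl2 and Lif that start lies past the gene start given above, at which the printed bases end. Fewer bases therefore follow these matches in print. The matches lie 80 and 62 bases before the RefSeq start of Cxcl1 and 88 and 69 bases before that of Cxcl2. Il6 held 1 NF-kB match 35 bases before its RefSeq start and 1 AP-1 match on the minus strand 243 bases before it. Lif held 1 AP-1 match 222 bases before its RefSeq start. Over 32851 RefSeq windows of the same kind, 1.41% held the NF-kB letters and 4.46% the AP-1 letters. Of the genes called with Fos and Jun below, Cxcl1 and Cxcl2 held no AP-1 match and Il6 held 1, while Lif was not called. A match describes the letters only, and binding was not measured. A relation of matches to RNA levels was not tested.

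Each value below is a sum of UMIs (unique molecular identifiers, 1 per captured RNA molecule) over barcodes, given as CPM, the count divided by all UMIs of the same barcodes and scaled to a common total. After the study's filters, 1526, 391 and 326 barcodes with 8340981, 5669762 and 2022240 UMIs were retained in 2IC replicate 1, 2IC replicate 2 and 1IC, and values are listed in that order throughout. Barcodes were assigned to 5 gates by at least 1 UMI of Cr2 (follicular dendritic cells, FDCs), then Madcam1 (marginal reticular cells) and Tnfsf11 (interfollicular and marginal reticular cells). Fmod (T-B border reticular cells) and Inmt (medullary reticular cells) came last. UMIs of several gate genes were carried by 807 of 2243 retained barcodes, unevenly by gate. Of 145, 35 and 50 Cr2 barcodes, 39, 10 and 17 carried no other gate gene. No Inmt barcode carried another, because of the order. Inmt UMIs were found in a mean of 67.7% of barcodes in the Tnfsf11 gate and 57.7% in the Fmod gate. The gates are thus not cleanly separate cell types. Of the FDC markers, Fcer2a averaged 198 CPM in the Cr2 gate and at most 10.0 CPM in the others, while Clu averaged 17478 CPM in the Cr2 gate and 15483 CPM in the Madcam1 gate. Ccl21a averaged 11045 CPM in the Fmod gate and at most 5181 CPM in the other gates. The interfollicular marker Ch25h averaged 38.7 CPM in the Tnfsf11 gate but 102 CPM in the Madcam1 gate, and Tnfsf11 itself 297 and 422 CPM. Inmt averaged 548 CPM in the Tnfsf11 gate and 854 CPM in the Inmt gate. The name of the Tnfsf11 gate is thus not borne out by these markers. RNA of other cells was not zero: summed over 10 genes, the myeloid list ranged from 6.63 to 380 CPM over gates and libraries, and Cd79a, Cd79b, Trac, Cd3d, Cldn5 and Lyve1 were at 0 because the filter removes barcodes with their UMIs. The 2IC libraries shared 76 barcodes, 7.39% of those in replicate 2, with a median of 673 UMIs in the shallower copy and 36187 in the deeper. Without the shared barcodes 16 rather than 17 member calls between gates were made, and 3 with Fos and Jun as before. The median depth of retained barcodes was 4701, 14732 and 5979 UMIs.

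The ELR chemokine gene Cxcl1 was expressed at 1206, 1004 and 626 CPM over all retained barcodes, and 62.5%, 68.5% and 38.0% of barcodes carried at least 1 UMI of it. Cxcl2 stood at 92.6, 85.5 and 23.2 CPM, and Cxcl5 at 22.3, 48.5 and 14.3 CPM. For these genes 1IC held the lowest value.

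Ccl2 stood at 330, 643 and 114 CPM, Ccl7 at 285, 305 and 157 CPM, and Ccl11 at 387, 454 and 270 CPM. The IL-6 family genes were sparse, with Il6 at 28.3, 27.2 and 5.44 CPM and Lif at 8.75, 27.7 and 4.95 CPM. In 1IC only 11 UMIs of Il6 and 10 of Lif were counted. For all 8 genes the 1IC library was below both 2IC libraries, whereas Fos (6817, 5160 and 6181 CPM) and Jun (5777, 6448 and 5969 CPM) were not ordered in this way. The mix of gates differed between the libraries and was not removed from these sums.

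Background RNA was estimated from barcodes classed as B cells, which should lack these cytokines. They held at least 2 UMIs of Cd79a and Cd79b, no UMI of Col1a1, Col3a1, Pdgfrb or Pdpn, and were not shared between libraries. Leaving out barcodes with those stromal UMIs can make this background too low. There Cxcl1 measured 66.9, 60.7 and 5.08 CPM, Ccl2 10.6, 11.7 and 5.08 CPM, and Cxcl5 and Lif gave 0 UMIs in every library. With every barcode thinned to 500 UMIs, a Cxcl1 UMI was found in 5.07%, 5% and 0% of B cell barcodes against 28.3%, 25.3% and 13.3% of gated stromal barcodes (median depths before thinning 3367, 5843 and 3138 against 5260, 15409 and 6586 UMIs). Il6 measured 3.26, 0 and 0 CPM in B cell barcodes against 28.2, 25.5 and 4.10 CPM in gated stromal barcodes. The counting intervals of Il6 did not overlap in the 2IC libraries, and in 1IC they did, so that Il6 was not told from background there. The same held for Lif, whose 1IC intervals were 1.65 to 8.45 CPM in gated stromal and 0 to 6.24 CPM in B cell barcodes.

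The level of these genes differed between stromal gates, with low values in the Cr2 gate and high values in the Fmod and Inmt gates. Cxcl1 stood at 515, 391 and 18.7 CPM in the Cr2 gate and at 822, 606 and 18.5 CPM in the Madcam1 gate. It reached 851, 858 and 556 CPM in the Tnfsf11 gate, 1614, 760 and 1577 CPM in the Fmod gate and 1711, 1456 and 903 CPM in the Inmt gate. Every Fmod and Inmt value lay above every Cr2 value. Thinned to 2000 UMIs, 27.3%, 23.5% and 4.76% of barcodes in the Cr2 gate held a Cxcl1 UMI, against 58.2%, 48.8% and 43.4% in the Inmt gate.

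Cxcl2 was more scattered. It measured 20.1, 67.2 and 0 CPM in the Cr2 gate (3 counts would be 9.34 CPM in 1IC) and 107, 135 and 20.6 CPM in the Inmt gate. In the Madcam1 gate it measured 117, 240 and 0 CPM, but 91.9% and 100% of its UMIs in the 2IC libraries came from 1 barcode each. In the Tnfsf11 gate the 2IC libraries stood 91.2 against 7.34 CPM apart. Cxcl5 ranged from 0 to 10.6 CPM in the Cr2 gate and from 35.6 to 39.2 CPM in the Inmt gate.

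Ccl2 was lowest in the Cr2 gate in each library, at 76.9, 62.4 and 12.5 CPM. It stood at 500, 774 and 252 CPM in the Fmod gate and at 459, 425 and 74.2 CPM in the Inmt gate. Within each library the Fmod and Inmt gates were above the Cr2 gate, although the 1IC value in the Inmt gate overlapped the Cr2 values of 2IC. In the Madcam1 gate it measured 143, 838 and 167 CPM, and 98.6% of the UMIs behind the highest of these came from 1 of 16 barcodes, without which it was 12.5 CPM. That is below the 62.4 CPM of the whole Cr2 gate there. In 1IC, 17 of 18 Ccl2 UMIs of the Madcam1 gate and all 4 of the Cr2 gate came from 1 barcode each. The order of the Cr2 and Madcam1 gates thus rested on single barcodes in 2IC replicate 2 and 1IC.

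Ccl7 followed the same order, with 80.4, 21.6 and 0 CPM in the Cr2 gate and 539, 484 and 391 CPM in the Fmod gate. The groups did not overlap. In the Inmt gate Ccl7 stood at 392, 230 and 365 CPM, but 71.8% of the 1IC UMIs came from 1 barcode, without which it was 106 CPM. Ccl11 stood at 128, 247 and 9.34 CPM in the Cr2 gate and at 124, 130 and 0 CPM in the Madcam1 gate. It reached 605, 450 and 610 CPM in the Fmod gate and 520, 588 and 470 CPM in the Inmt gate, above every value of the Cr2 and Madcam1 gates.

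Il6 gave 2.37, 7.20 and 0 CPM in the Cr2 gate, from 5 UMIs in all. These values lay within the counting intervals of B cell barcodes (0.889 to 8.35, 0 to 8.61 and 0 to 6.24 CPM). Il6 was thus not told from background in the Cr2 gate. It stood at 34.5, 31.0 and 6.63 CPM in the Fmod gate and 39.2, 24.6 and 8.25 CPM in the Inmt gate, so that the 2IC libraries were above the Cr2 gate and the 1IC values lay near the highest Cr2 value. Lif ranged from 2.37 to 24.0 CPM in the Cr2 gate and from 4.12 to 13.2 CPM in the Inmt gate, and these ranges overlapped.

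**Figure D1:**
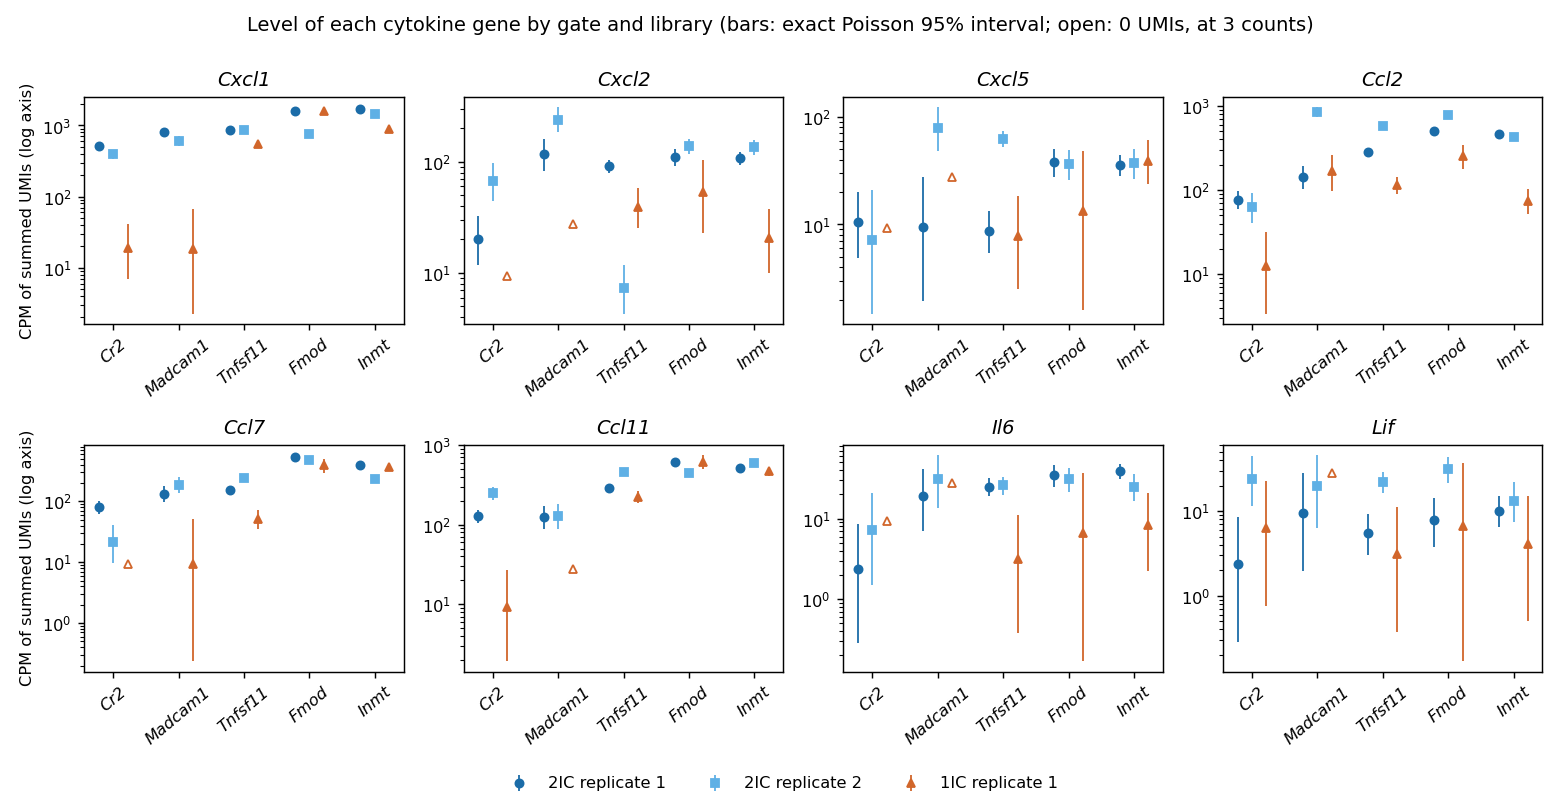
Level of each gene in CPM on a log axis by gate, with 1 point per library and exact Poisson 95% intervals that cover counting error only. Open symbols mark sums with 0 UMIs, drawn at 3 counts, and the Cr2 gate held the lowest Ccl2 value of each library (76.9, 62.4 and 12.5 CPM).

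Each gate was compared with the mean of the other 4 in edgeR (quasi-likelihood test, library as a block, Benjamini-Hochberg adjustment over 8531 genes). In the Cr2 gate 7 of 8 members were lower, against 9.04% of all genes tested, and their median log2 fold change was -1.81 against 0.01 for all genes. Of 145, 35 and 50 Cr2 barcodes, 110, 25 and 32 held the nuclear RNA Malat1 at 1% or more. With only those kept in the Cr2 gate, 6 of 8 members were called there. The monocyte chemokine Ccl2 was lower by a log2 fold change of -2.71 (SE 0.33, edgeR adjusted p = 2.51e-07) and Ccl7 by -2.47 (SE 0.41, adjusted p = 3.25e-05). Il6 was lower by -2.86 (SE 0.49, adjusted p = 5.84e-05), Cxcl1 by -1.64 (SE 0.38, adjusted p = 0.00178) and Ccl11 by -1.28 (SE 0.31, adjusted p = 0.00338). The Il6 level of this gate, from 5 UMIs, was not told from background, so the size of its fold change is uncertain. Cxcl5 (-1.97) and Cxcl2 (-1.65) passed the threshold with edgeR adjusted p of 0.0326 and 0.0462, whereas Lif did not (-0.26, adjusted p = 0.763). Leaving out 2IC replicate 1 or fitting without the library block ended several of these calls, but Ccl2 and Ccl7 passed in all 16 alternatives tried. In the Cr2 gate DESeq2 called 4 of 8 members and edgeR without the library block 3 of 8. With barcodes of exactly 1 gate gene 4 of 7 were called. The share of all genes called in these alternatives is not given here.

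In the Fmod gate 5 of 8 members were higher, against 5.52% of all genes. Ccl7 was higher by a log2 fold change of 1.93 (SE 0.27, edgeR adjusted p = 1.60e-05), Ccl11 by 1.43, Ccl2 by 1.33, Cxcl1 by 1.20 and Il6 by 1.04 (adjusted p = 0.0120). In the Inmt gate 4 of 8 were higher, against 8.03% of all genes: Ccl11 by 1.37 (SE 0.24, edgeR adjusted p = 0.00018), Ccl7 by 1.36, Cxcl1 by 1.20 and Il6 by 1.07. As each gate was set against the mean of the other 4, low values in the Cr2 gate enter these contrasts. The calls of different gates are thus not separate results. Il6 averaged 24.0 CPM in both the Fmod and the Inmt gate, 18.0 CPM in the Tnfsf11 gate, 16.8 CPM in the Madcam1 gate and 3.19 CPM in the Cr2 gate. Without 2IC replicate 1 the calls of members over all 5 gates went from 17 to 9. DESeq2 called 2 of 8 members in the Fmod gate and 1 of 8 in the Inmt gate. Without the library block edgeR called 1 and 0 there.

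The Madcam1 gate gave 1 call, a lower Ccl11 (log2 fold change -1.86, SE 0.38, edgeR adjusted p = 0.00271), where 2.54% of all genes were lower. With at least 2 UMIs of the gate gene 4 of 7 members were called in that gate in either direction, and with no filter on low counts 4 of 8. The share of all genes called in these settings is not given here. In the Tnfsf11 gate no member passed edgeR, 0 had an unadjusted p under 0.05 and DESeq2 also called 0, where 5.32% of all genes were called in either direction. With at least 2 UMIs of the gate gene 2 of 7 were called there, and with no filter on low counts 1 of 8. The median log2 fold change of the 8 members there was 0.07. Fos and Jun were lower in the Cr2 gate in the same fit (log2 fold change -0.68 and -0.55, edgeR adjusted p = 0.00236 and 0.00169) and higher in the Inmt gate (0.98 and 0.56, adjusted p = 1.8e-05 and 0.0011). The part of this in the cytokine differences was not tested.

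**Figure D2:**
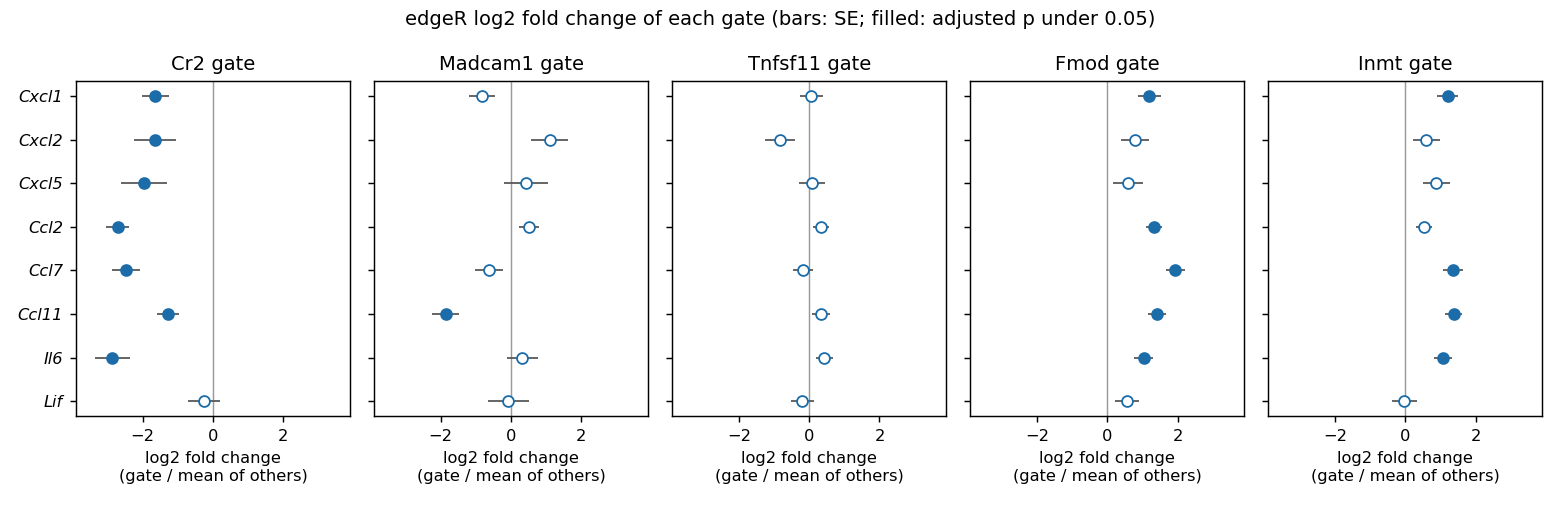
Log2 fold change of each gate against the mean of the other 4 for the 8 genes from the edgeR fit, with standard errors, filled where the adjusted p was under 0.05. Filled points lie left of 0 for 7 genes in the Cr2 gate and right of 0 for 5 in the Fmod gate and 4 in the Inmt gate.

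The UMIs of these genes were concentrated in few barcodes. The highest 10% of barcodes held 63.7%, 63.8% and 75.0% of Cxcl1 UMIs, 90.7%, 79.9% and 94.8% of Ccl2 UMIs and 53.1%, 53.4% and 57.0% of Ccl11 UMIs. Cxcl1 and Ccl11 were thus spread more broadly than Ccl2, whose single highest barcode in 2IC replicate 1 held 352 of 2752 UMIs. In 1IC, 1 barcode held 127 of 317 UMIs of Ccl7 and 1 held 20 of 47 UMIs of Cxcl2, so that these 1IC levels rest on single barcodes.

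The relation to Fos and Jun was examined by ranking the barcodes of each library and gate by the share of UMIs from Fos and Jun and dividing them into 4 bins of equal size, so that every bin holds the same mix of gates. From the lowest to the highest bin, Cxcl1 rose from 302 to 955, 1626 and 2061 CPM in 2IC replicate 1. The values were 161, 892, 1058 and 1834 CPM in 2IC replicate 2 and 92.2, 449, 764 and 1051 CPM in 1IC. Cxcl1 thus increased with each bin in all 3 libraries, by 6.82-fold, 11.4-fold and 11.4-fold between the extremes.

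Cxcl2 measured 15.8, 6.09 and 2.43 CPM in the lowest bin and 129, 111 and 44.4 CPM in the highest, and in 2IC replicate 2 the highest value stood in the third bin (141 CPM). Il6 measured 6.98, 4.57 and 2.43 CPM in the lowest bin and 45.7, 39.5 and 8.53 CPM in the highest. For both genes the highest bin lay above the lowest in each library, with 1 UMI of either gene in the lowest bin of 1IC.

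Ccl2 and Ccl11 had another shape, and Ccl7 and Cxcl5 gave no common direction between libraries. Ccl2 in 2IC replicate 1 stood at 263, 435, 388 and 220 CPM from the lowest to the highest bin, and in 2IC replicate 2 at 509, 871, 925 and 251 CPM. In both libraries the third or second bin was the highest and the top bin the lowest. Without the barcode with most Ccl2 UMIs the second bin fell to 277 and 697 CPM, the third was the highest at 388 and 925 CPM and the top bin was again the lowest. In 1IC Ccl2 lay between 76.8 and 142 CPM with no order. Ccl11 changed little, from 318 to 440 CPM, 393 to 379 CPM and 243 to 275 CPM between the lowest and the highest bin. Between the same bins Ccl7 went from 167 to 266, 266 to 180 and 347 to 181 CPM. Without the highest Ccl7 barcode of 1IC, the last of these was from 40.2 to 181 CPM. Cxcl5 went from 14.4 to 33.1, 67.0 to 16.6 and 17.0 to 8.53 CPM, with 7 and 5 UMIs in 1IC.

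**Figure D3:**
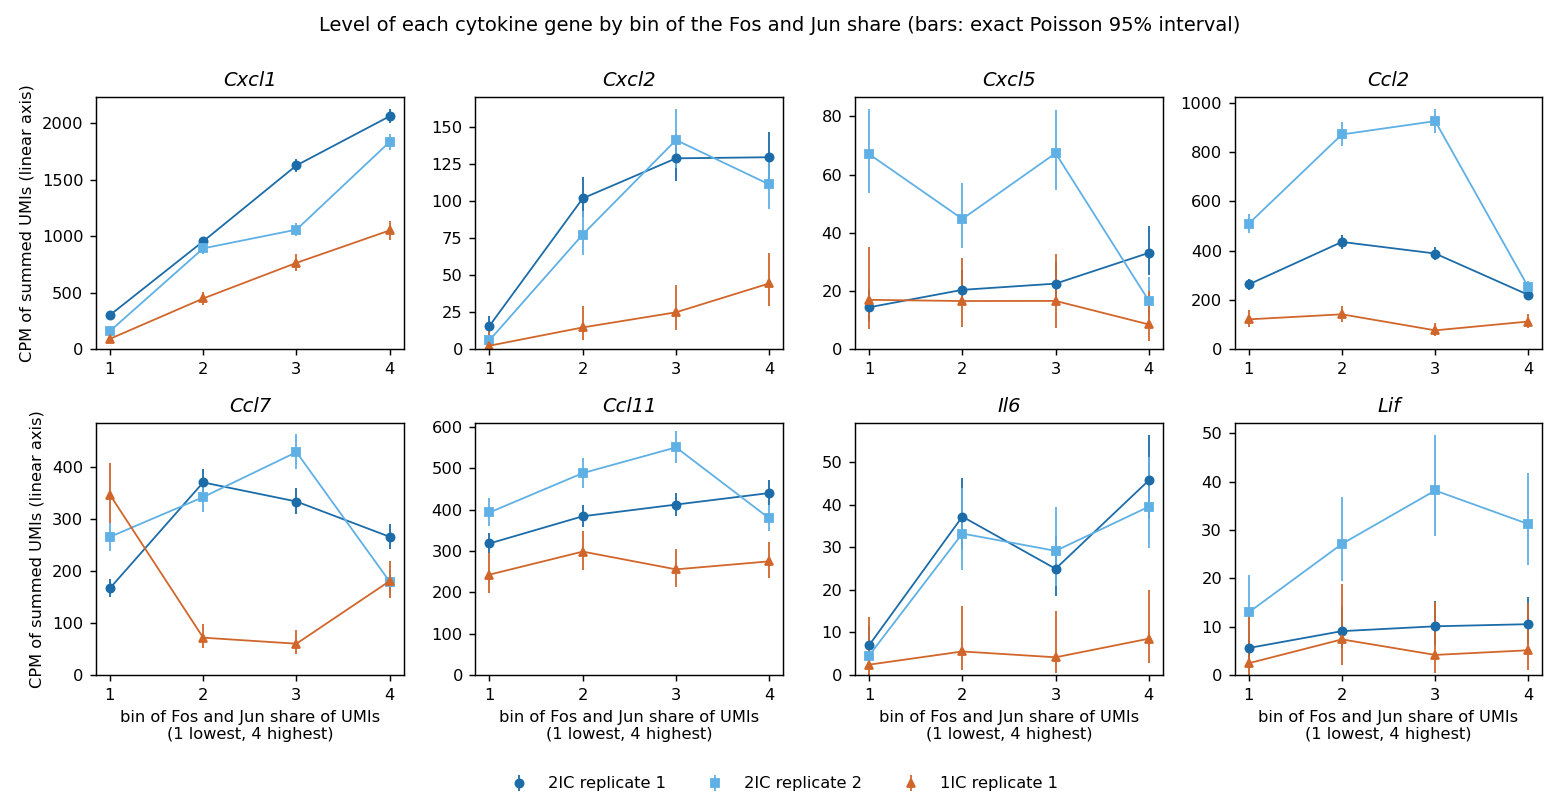
Level of each gene in CPM on a linear axis in 4 bins of the Fos and Jun share of UMIs, drawn within library and gate, with exact Poisson 95% intervals that cover counting error only. Cxcl1 rises with each bin in the 3 libraries, to 2061, 1834 and 1051 CPM, while Ccl2 of the 2IC libraries is highest in the middle bins.

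For a test, barcodes above the median Fos and Jun share of their library and gate were summed and compared with those below it. Cxcl1 stood at 1839, 1482 and 879 CPM above and 631, 538 and 355 CPM below the median. Cxcl2 stood at 129, 129 and 29.6 CPM above and 59.1, 42.9 and 16.4 CPM below. Il6 stood at 35.0, 35.3 and 6.69 CPM above and 22.2, 19.2 and 4.10 CPM below. All 3 genes stood higher above the median in each library, but in 1IC this rested on few UMIs for Cxcl2 and Il6. Without 1 barcode that held 20 of 47 Cxcl2 UMIs, Cxcl2 in 1IC stood at 10.6 CPM above and 16.4 CPM below (11 and 16 UMIs), the opposite direction. Il6 in 1IC rested on 7 UMIs above and 4 below. Without 1 barcode of 24 UMIs, Il6 in 2IC replicate 2 stood at 27.0 against 19.2 CPM. The interval of that log2 ratio, -0.03 to 1.02, included 0. In 2IC replicate 1 Il6 without its highest barcode stood at 35.0 against 18.1 CPM (0.54 to 1.37). Cxcl1 remained higher above the median in all 3 libraries without its highest barcode (1793 against 631, 1482 against 452 and 742 against 355 CPM). Cxcl5 stood at 27.7, 43.2 and 12.4 CPM above and 17.4, 53.7 and 16.4 CPM below the median.

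In the edgeR fit with the library as a block, 3 of 8 members were higher above the median, against 3.76% of 11339 genes tested. Cxcl1 was higher by a log2 fold change of 1.49 (SE 0.09, edgeR adjusted p = 8.54e-13), Cxcl2 by 1.35 (SE 0.11, adjusted p = 1.68e-09) and Il6 by 0.81 (SE 0.16, adjusted p = 0.00167). Lif gave 0.64 (SE 0.21, edgeR adjusted p = 0.0665), Ccl11 0.11 and Ccl7 0.02. Ccl2 gave -0.21 (SE 0.09, edgeR adjusted p = 0.182) with 309 against 349, 588 against 696 and 94.6 against 134 CPM above and below the median. In 2IC replicate 1 this direction rested on 1 barcode of 352 UMIs, without which Ccl2 stood at 309 against 269 CPM, and without the highest barcode of each of the others the values were 589 against 606 and 94.6 against 107 CPM. When the bins were also matched on depth, the estimate for Ccl2 was 0.26 and 5 members passed, Lif and Ccl7 in addition. Without the library block none of the 3 passed (adjusted p for Cxcl1 0.517, 2 members with an unadjusted p under 0.05), while DESeq2 with the block called 2.

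The barcodes above the median had median depths of 4509, 14988 and 6589 UMIs, against 4891, 14085 and 5334 UMIs below. Depth above the median was thus lower in 2IC replicate 1 and higher in 2IC replicate 2 and 1IC. The barcodes above the median held less RNA of the 10-gene myeloid list, at 46.1, 22.5 and 26.8 CPM against 211, 62.8 and 422 CPM below. With barcodes that carry 2 or more UMIs of that list left out, 3 members were again called.

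Within gates the relation differed between genes. Cxcl1 was higher above the median in all 17 pairs of library and gate with more than 3 UMIs in all, barcodes of no gate included, and the exact interval of the ratio lay above 1 in 16 of them. With the highest barcode of each pair left out it was higher in 16 of 17, the exception being the Cr2 gate of 1IC with 2 UMIs on either side. In the Cr2 gate it stood at 1077 CPM above against 69.9 CPM below the median in 2IC replicate 1 and at 661 against 86.8 CPM in 2IC replicate 2. In the Inmt gate the values were 2412 against 1061, 2112 against 743 and 1184 against 610 CPM. The log2 ratio was thus 3.95 and 2.93 in the Cr2 gate of the 2IC libraries and 1.18, 1.51 and 0.96 in the Inmt gate. This difference between gates was not tested. Both Cr2 values below the median lay within the counting intervals of Cxcl1 in B cell barcodes of the same libraries (66.9 and 60.7 CPM). They were thus not told from background, whereas the Inmt values below the median lay above the B cell interval of each library. The part of background RNA in the difference between gates was not tested.

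The direction of Ccl2 within gates depended on single barcodes. In the Cr2 gate of the 2IC libraries it stood at 150 against 19.1 and 90.5 against 30.6 CPM, higher above the median. In the Inmt gate it stood at 319 against 589 and 253 against 611 CPM, lower above the median, and both intervals of the log2 ratio excluded 0 (-1.07 to -0.70 and -1.56 to -0.99). In 1IC the Inmt values were 88.9 against 58.9 CPM, with an interval from -0.44 to 1.67. These intervals cover counting error only. Without the highest barcode of each, the Inmt values above and below the median were 319 and 294, 253 and 491, and 41.5 and 58.9 CPM in the 3 libraries, so that the direction turned in 2IC replicate 1 and in 1IC. In the Cr2 gate they were 62.9 against 19.1 and 32.8 against 30.6 CPM. Left out in this way, the highest barcode turned the direction of Ccl2 in 7 of 15 pairs and that of Cxcl2 in 6 of 12.

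**Figure D4:**
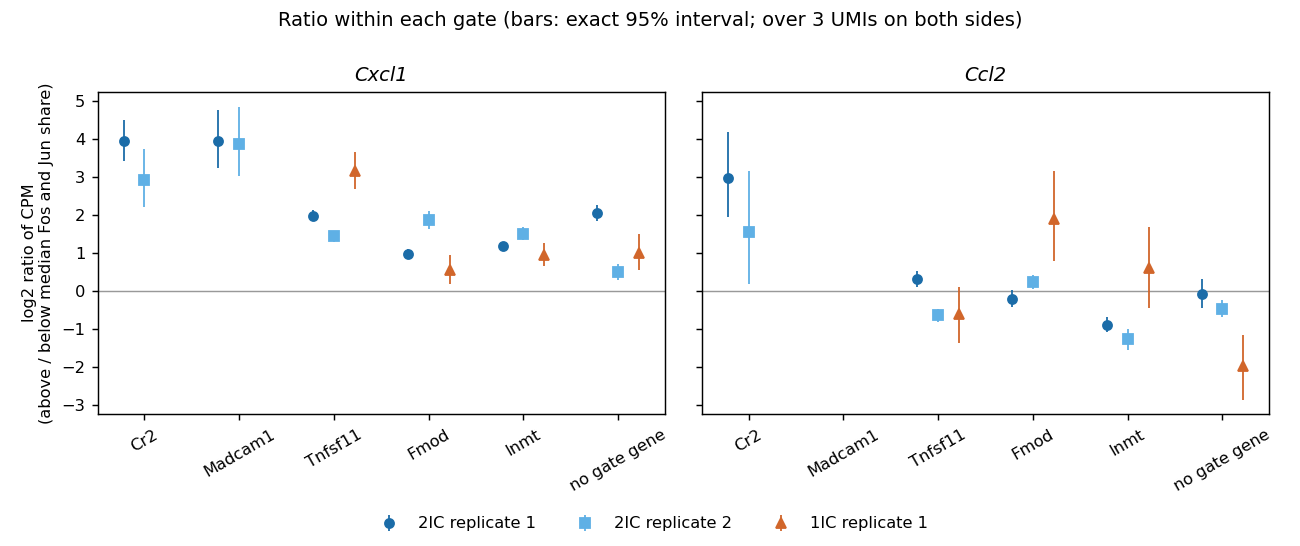
Log2 ratio of CPM between barcodes above and below the median Fos and Jun share within each gate for Cxcl1 and Ccl2, with exact 95% intervals for counting error, shown where each side held more than 3 UMIs. All Cxcl1 points lie above 0, and the Ccl2 points lie above 0 in the Cr2 gate (2.98 and 1.56) and below 0 in the Inmt gate of the 2IC libraries (-0.88 and -1.27), where the first rests on 1 barcode of 352 UMIs.

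At the level of single barcodes thinned to 2000 UMIs, Spearman's rho between Cxcl1 and the sum of Fos and Jun was 0.45, 0.39 and 0.41 over 1307, 346 and 271 barcodes. It is given as a description, since barcodes of a library share a suspension. Unlike in the bins, barcodes of all gates were pooled, so that differences between gates in these genes enter rho. Their part in it was not tested. The median sum of Fos and Jun was 33, 27 and 34 UMIs in barcodes with Cxcl1 and 17, 16 and 15 UMIs in those without. For Ccl2 rho was 0.10, 0.02 and 0.07. Fos alone and Jun alone gave 0.41, 0.37 and 0.42, and 0.41, 0.34 and 0.35, for Cxcl1.

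Several pairs of members, but not all, were found together in the same barcodes, with all gates pooled. Differences between gates enter these shares too, and pairs of other genes were not compared. Among thinned barcodes, 12.3% of those with Cxcl1 and 2.08% of those without held a Cxcl2 UMI in 2IC replicate 1, and in the other libraries 20 of 20 and 7 of 7 barcodes with Cxcl2 also held Cxcl1. Of barcodes without Cxcl2, 39.6% and 25.4% held Cxcl1 in those libraries. Ccl7 was found in 44.2%, 53.5% and 32.0% of barcodes with Ccl2 and in 14.7%, 7.69% and 4.47% of those without. Co-detection was not particular to neighbouring genes, since Ccl7 was found in 28.8%, 25.5% and 17.6% of barcodes with Cxcl1 and in 10.2%, 14.2% and 3.05% of those without. Cxcl5, a neighbour of Cxcl1, was found in 4.27%, 4.70% and 2.70% of barcodes with Cxcl1 and in 1.19%, 5.58% and 0.508% of those without, in the opposite order in 2IC replicate 2. At least 3 members were detected in 17.9%, 20.2% and 6.64% of barcodes, and none in 30.6%, 30.6% and 53.9%.

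Over the 15 sums of library and gate, centred by library, Cxcl1 correlated with Ccl11 at 0.96, with Jun at 0.93 and with Fos at 0.89, and Ccl2 with Il6 at 0.80. With Fos and Jun, Ccl11 gave 0.93 and 0.94 and Ccl7 0.79 and 0.90, although neither was called within gates. Cxcl2, at 0.30 and 0.41, and Il6, at 0.30 and 0.50, were lower here although both were called. These sums follow differences between gates, not between barcodes within a gate. These points share 3 libraries, so the values are descriptions. Among 2993 genes with a mean of at least 50 CPM, the genes most like Cxcl1 were Man2a1 (0.97), Ccl11 (0.96) and Gpc6 (0.96). Those most like Cxcl2 were Ptov1 (0.91), Dst (0.74) and Rnf150 (0.74), and those most like Cxcl5 were Tgfbr2 (0.84), Glul (0.82) and Igfbp3 (0.82). Ccl2 was closest to Shisa3 (0.94), Ypel3 (0.93) and Prdx4 (0.91), Ccl7 to Rpl14 (0.96) and Plvap (0.95), and Ccl11 to Nrp1 (0.97), Igfbp4 (0.97) and Gas6 (0.97).

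The receptors and inputs of the pathway were examined with lists of related genes. None of 8 chemokine receptor genes for these ligands passed the filter on low counts in either fit. Of 11 genes for IL-6 family receptors and signalling, all tested above and below the median Fos and Jun share, 3 were higher and 0 lower, with a median log2 fold change of 0.25 against -0.01 over all genes. These were Socs3, a feedback inhibitor of STAT3 signalling (1.41, SE 0.09, edgeR adjusted p = 2.01e-12), Cebpb (0.72) and Cebpd (0.37), which encode transcription factors. The receptor genes Il6st (-0.05), Lifr (0.25) and Osmr (0.11) did not pass.

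Of 13 genes for NF-kB subunits and feedback, 4 were higher above the median and 0 lower, with a median of 0.10. They were the inhibitors and feedback genes Nfkbia (0.94, edgeR adjusted p = 1.94e-08), Nfkbiz (1.52), Tnfaip3 (0.81) and Zfp36 (1.65), the last of which encodes a protein that destabilises cytokine mRNAs. The subunit genes Nfkb1 (-0.07), Rela (0.08) and Relb (-0.19) did not pass. None of 11 genes for IL-1, TNF, IL-17 and TLR inputs was called by edgeR, and 16 of 17 other immediate early genes tested were higher, with a median of 1.44. The last list is of the same class as Fos and Jun, which drew the groups. Calls of the other lists rest on the same groups. Socs3, Nfkbiz and Zfp36 rose by amounts like those of Egr1 (1.70) and Jund (1.39) of the last list. Whether such genes rose together with Fos and Jun or through the named pathways was not tested.

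Among 7 of 13 other inflammatory chemokine and growth factor genes tested, 0 were higher and 2 were lower above the median, Ccl5 (-1.82, edgeR adjusted p = 2.33e-06) and Ccl9 (-0.53, adjusted p = 0.000443). Of all 11339 genes tested 366 were lower. Ccl5 averaged only 8.23 CPM over the gates. As given above, barcodes below the median held more myeloid RNA, and its part in these 2 calls was not tested. Of 5 prostaglandin and hyaluronan enzyme genes 2 were higher, Ptgs2, which encodes the inducible cyclooxygenase (1.05, edgeR adjusted p = 3.80e-06), and Has1 (1.28), and of 9 heat shock genes 3 were higher and 1 lower. Of 5 other IL-6 family ligands 1 could be tested, Clcf1 (-0.28), and it did not pass.

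Over all genes 11.9% were higher and 9.04% lower in the Cr2 gate in edgeR. Of 17 other immediate early genes 12 were lower there, and 15 were higher in the Inmt gate. Of the NF-kB list 5 of 13 were higher and 1 lower in the Cr2 gate, while Il1r1, which encodes the receptor for IL-1, was lower there (-0.78, edgeR adjusted p = 0.000145). Of the 3 prostaglandin and hyaluronan enzyme genes tested, Ptgs2 was lower (-1.26, edgeR adjusted p = 0.00474), while Has2, which encodes a hyaluronan synthase (0.74, adjusted p = 0.00573), and Ptges, which encodes a prostaglandin E synthase (1.48, adjusted p = 2.98e-05), were higher. Of the IL-6 family receptors and signalling list 1 of 11 was higher and 3 were lower in the Cr2 gate, Socs3 (-0.59) and Cebpd (-0.93) among the lower ones.

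The 1IC condition had 1 library, so its values were set beside each 2IC library without a test of the condition. Of 5 members with at least 50 CPM in either library, 2 were at least 2-fold lower in 1IC than in 2IC replicate 1, Cxcl2 and Ccl2. The same 2 were lower than in 2IC replicate 2, against 1.58% and 8.02% of all genes so compared. Cxcl2, at 23.2 CPM in 1IC, reached 50 CPM only through 2IC, so that its 2-fold difference was fixed by the filter. Its 1IC value rests on 47 UMIs, 20 of them from 1 barcode. The log2 ratio of Ccl2 was -1.54 (exact interval -1.74 to -1.34) and -2.50 (-2.70 to -2.31), and that of Cxcl2 -1.99 and -1.88. The 2IC libraries differed from each other by -0.96 for Ccl2 and by 0.11 for Cxcl2, and 0 of 5 members were 2-fold apart between them, against 5.51% of all genes. Il6, under 50 CPM and not counted, gave -2.38 (-3.40 to -1.51) and -2.32 (-3.35 to -1.44). These ratios share the 1IC library, and time, number of complexes, animals and library cannot be told apart. The mix of gates differed too. The Fmod gate held 19 of 326 barcodes in 1IC against 178 of 1526 and 59 of 391 in 2IC, and the Cr2 gate 50 against 145 and 35. With equal weight for each gate, 13 ratios of members between libraries left their counting interval and 11 did not.

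Within the Cr2 gate 4 members reached 50 CPM in the comparison with each 2IC library. They did so only through 2IC, since no member was above 18.7 CPM in 1IC. That all 4 were at least 2-fold lower in 1IC was thus fixed by the filter and is no result. They were Cxcl1, Ccl2, Ccl7 and Ccl11 against 2IC replicate 1 (8.07% of all genes were lower). Against 2IC replicate 2 they were Cxcl1, Cxcl2, Ccl2 and Ccl11 (15.8%). Cxcl1 was 18.7 CPM in 1IC, from 6 UMIs in 50 barcodes, against 515 and 391 CPM in 2IC, and its log2 ratio was -4.78 (-6.24 to -3.65) and -4.39 (-5.85 to -3.23). Its counting interval in 1IC overlapped that of the B cell barcodes of the same library (5.08 CPM). In the Fmod gate Cxcl1 in 1IC (1577 CPM) was level with 2IC replicate 1 (log2 ratio -0.03, -0.23 to 0.16) and above 2IC replicate 2 (1.05, 0.84 to 1.26), and the 2IC libraries themselves lay 1.09 apart there. Ccl11 in the Fmod gate was likewise close to 2IC replicate 1 (0.01, -0.32 to 0.32). The Fmod gate of 1IC held 19 barcodes, and 32.8% of its Cxcl1 UMIs came from 1 of them.

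Ccl2 was lower in 1IC in the Tnfsf11 and Inmt gates too, by log2 ratios of -1.32 and -2.63 against 2IC replicate 1 and -2.33 and -2.52 against 2IC replicate 2. In the Madcam1 gate its log2 ratio was 0.22 (-0.65 to 1.04) against 2IC replicate 1 and -2.33 against 2IC replicate 2, and in barcodes of no gate -0.18 (-0.61 to 0.23) and -3.24. In barcodes removed by the contaminant filter, however, Ccl2 stood at 205, 377 and 363 CPM, with 1IC above 2IC replicate 1. With those barcodes kept, the log2 ratio of Ccl2 was -0.18 against 2IC replicate 1 and -1.15 against 2IC replicate 2, and that of Cxcl2 was -1.99 and -2.00.

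**Figure D5:**
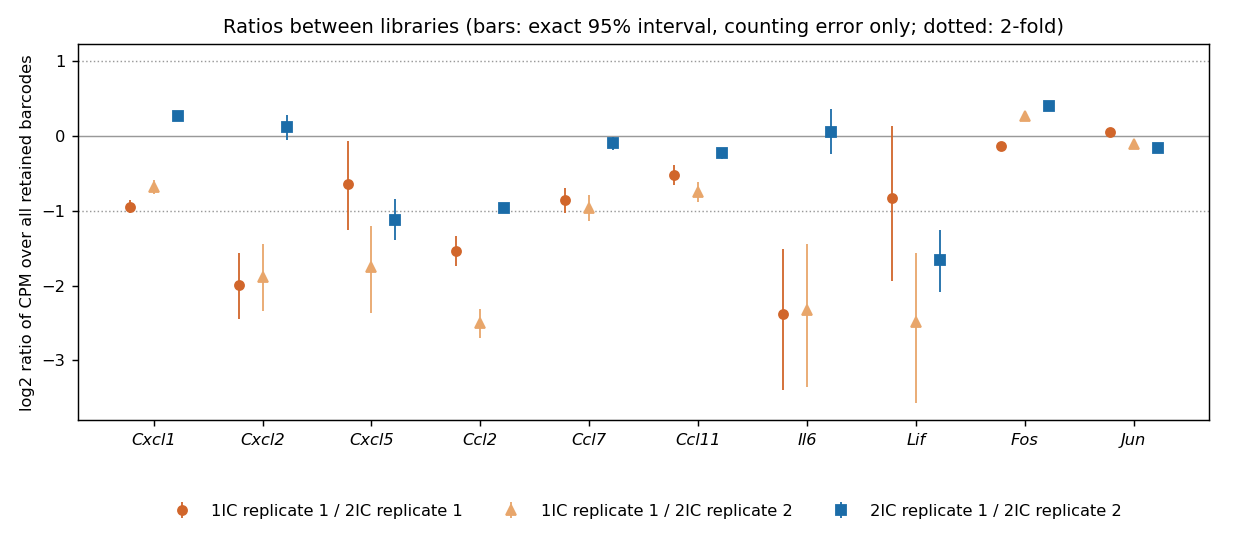
Log2 ratio of CPM over all retained barcodes between libraries for the 8 genes and for Fos and Jun, with exact 95% intervals for counting error and dotted lines at 2-fold. The ratios of 1IC to either 2IC library lie below 0 for all 8 genes, and Ccl2 (-1.54 and -2.50) and Cxcl2 (-1.99 and -1.88) lie below the 2-fold line in both. The 1IC value of Cxcl2 rests on 47 UMIs, 20 of them from 1 barcode.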

How the data were processed

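Single-cell RNA was measured in 3 libraries made with a 10x Genomics 3′ kit. The authors aligned reads to GRCm38 with Cell Ranger (5.0.0 per the file headers) and deposited raw counts of UMIs per gene and barcode, with no normalization. Libraries were grouped by their titles, since the short descriptions of the 2IC libraries conflict in time point. How the pooled mice map to libraries is not given in the sources used here. With the library as a block, p-values set differences between classes of barcodes against their residual spread over these libraries only. The block takes out the spread between the levels of the libraries, and spread between mice was not measured. The genes and all lists were chosen with earlier results of these data known.

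Barcodes with at least 200 genes, at most 10% mitochondrial UMIs and no count of 13 contaminant genes were retained (2243 of 5486), as in the study. No doublet caller was run, and leaving out the top 5% of UMIs is an alternative. Gates were assigned in the order Cr2, Madcam1, Tnfsf11, Fmod, Inmt. Counts were summed per library and class of at least 5 barcodes and tested in edgeR 4.0.16 (R 4.3.3, TMM, filterByExpr, quasi-likelihood test with the library as a block, Benjamini-Hochberg adjusted p under 0.05). The library block pairs sums that share a suspension of cells. DESeq2 1.42.0 was an alternative. The fit across genes was tested on simulated counts. Poisson and Clopper-Pearson 95% intervals and the limit of 3 counts for a count of 0 cover counting error only.

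Named genes are the 8 members, Fos, Jun, the gate genes, the 3 genes most correlated (library-centred log2 CPM, prior count 2, mean of at least 50 CPM) with each member of at least 50 CPM in any gate, and the 2 genes of highest mean CPM in each list. One gene that this rule names is not reported here. Other list and marker genes, and the members and gates of the plot of ratios within gates, were picked with their values in view. The alternatives that leave out barcodes shared between libraries or barcodes with myeloid RNA, that match bins on depth, and that leave out the barcode with most UMIs of a gene, were chosen after seeing the data.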

Additional observations from a re-analysis of the deposited data

Results flagged for a closer look

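The 2270 barcodes removed for a count of a contaminant gene enter no comparison, and all 8 genes were measured there above the limit that a count of 0 allows. Cxcl1 stood at 758 CPM, Cxcl2 at 67.4 CPM and Cxcl5 at 19 CPM over the 3 libraries together. Ccl2 stood at 274 CPM, Ccl7 at 213 CPM and Ccl11 at 240 CPM. Il6 stood at 16.7 CPM and Lif at 6.18 CPM. These barcodes hold a mixture of stromal and other cells, and the share of each in the cytokine RNA was not tested.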

How the results depend on the processing

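Between gates, 17 of 40 pairs of gene and gate passed, and the count was 8 with DESeq2, 4 with no replicate block and 10 of 35 with barcodes of exactly 1 gate gene, and on the other side 25 with no filter on low counts, 19 with no contaminant filter and 23 of 35 with at least 2 UMIs of the gate gene. Leaving out 1 library gave 9 to 20, with 9 without 2IC replicate 1. Between barcodes above and below the median Fos and Jun share, 3 members passed, and the count was 6 with no contaminant filter, 0 with no replicate block, 5 with bins drawn within library only and 5 with bins matched on depth, and 2 to 3 with 1 library left out (2 without 2IC replicate 1, where Il6 was lost). Between libraries, 1IC against 2IC replicate 1 went from 2 members to 1 at a minimum of 200 CPM and to 1 with no contaminant filter, 1IC against 2IC replicate 2 from 2 to 1 at 200 CPM, and the 2IC libraries against each other from 0 to 1 when thinned and 1 without the top 5% of UMIs. Direction reversed for Il6 in the Fmod gate with exactly 1 gate gene (-0.77, adjusted p = 0.705), for Cxcl2 in the Cr2 gate with at least 2 UMIs of the gate gene (0.74, adjusted p = 0.827) and for Ccl2 in the Madcam1 gate in that setting (-2.13, adjusted p = 0.0187, against 0.51 uncalled). The causes were not tested, and the share of all genes called in each alternative is not given beside these counts. Of the 20 calls, 3 held in every alternative: Ccl2 and Ccl7 in the Cr2 gate and Ccl7 in the Fmod gate. Depth limits Il6 and Lif most, and the Madcam1 gate of 1IC held 17 barcodes.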
